A study of Drosophila melanogaster with 28 samples.

Results

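Transcript levels in testis of Drosophila melanogaster males without Mettl1 were compared with those of wild-type (WT) males in 4 RNA-seq libraries, out of 28 libraries of RNA-seq and ribosome profiling in the series. These were the RNA-seq libraries of the first of 2 sets of testis samples, with 2 WT and 2 knockout replicates. WT males were y1 w1118, and the knockout males carried the Mettl1KO1 allele, the single knockout line that the protocol names for this set. The males were adults of 2 to 3 days, 600 pairs of testes were pooled for each sample, and dissection was done in the cold in the presence of cycloheximide at 100 µg/ml. No tagged or driven transgene was named for either genotype. The digit in a library's title was read as its replicate number. In the titles of the body libraries, KO1 and KO2 are each followed by a replicate digit and were read as 2 knockout lines. The titles alone therefore do not settle the reading used for this set, on which the knockout replicates below rest. The labels do not say whether replicates came from separate crosses, so p-values measure the spread between these samples, which may be technical.

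Mettl1 is the catalytic subunit of the enzyme that places 7-methylguanosine in the variable loop of a subset of tRNAs. It works with a partner named wuho in the fly and WDR4 in mammals, and tRNAs that lack the mark can become unstable. In the fly testis, germ cells divide from stem cells at the tip, grow as spermatocytes with a large transcription programme, pass meiosis and elongate as spermatids, enclosed by somatic cyst cells. The comparison asked which transcripts differ in level in a testis that lacks the methyltransferase.

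The RNA-seq libraries held 9228102 and 10496553 counts in WT and 14055292 and 11445940 counts in the knockout, summed over 16117 loci. A locus is a group of neighbouring FlyBase transcripts with near-identical counts, of which the transcript with most counts stands for all. Levels are CPM, counts scaled to library size with TMM factors, and a change is the log2 ratio of knockout to WT. The files give transcript identifiers without gene names. A gene table tied 43 genes to a transcript, and none of them was Mettl1 or a member of the 19 gene lists for testis cell types and pathways (0 of 374 symbols matched). The targeted gene and the markers of testis, accessory gland, fat body and muscle were therefore not analysed here, and neither the genotype labels nor the labelled tissue was checked against them. How reads on overlapping or antisense genes were counted is not given in the sources used here, so values of such genes are uncertain. In pooled tissue, fewer cells of a type and less RNA per cell cannot be told apart.

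One knockout library stood apart at a limited number of loci. Among 9401 loci with a mean of at least 8 CPM over the 4 libraries, the log2 difference between replicates had an SD of 0.206 in WT and 0.608 in the knockout. Knockout replicate 2 was at least 4-fold above knockout replicate 1 at 237 loci, and the reverse was seen at 0 loci. In WT, replicate 2 was at least 4-fold above replicate 1 at 7 loci and the reverse was seen at 0. Across these loci, which are not independent replicates, the log2 levels of the WT libraries had a Pearson r of 0.992 and those of the knockout libraries an r of 0.949. Knockout replicate 1 correlated with the WT libraries at 0.849 and 0.845, and knockout replicate 2 at 0.934 and 0.930. No replicate pair agreed within counting error, with a chi-square of 3.03 per degree of freedom in WT and 19.1 in the knockout over loci with at least 100 counts in the pair.

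Knockout testes differed from WT at a large share of transcript loci, by mostly moderate amounts. In edgeR's quasi-likelihood test, with p-values adjusted by Benjamini-Hochberg over all loci, 40.3% of 13100 loci tested were called at an adjusted p under 0.05. Of these, 2811 loci were higher (21.5%) and 2472 were lower (18.9%) in the knockout. The median change of the higher loci was 0.67, and the middle 50% of them lay between 0.45 and 1.04. The median change of the lower loci was -0.73, and the middle 50% lay between -1.33 and -0.48. The median over all loci tested was -0.02, a value that TMM scaling holds near 0.

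Large changes were more often falls than rises. At least 2-fold higher were 755 loci (5.76%) and at least 2-fold lower were 871 (6.65%). The ratio of falls to rises grew with size, since 166 loci rose and 317 fell at least 4-fold, and 51 rose and 141 fell at least 8-fold. In 119 of the lower calls, all of them at least 2-fold lower, the knockout replicates were themselves 2-fold or more apart. This held for 0 of the higher calls. With those 119 set aside, falls of at least 2-fold would not outnumber the rises. Both knockout libraries were above both WT libraries at 4879 loci (37.2%) and below both at 5200 (39.7%).

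**Figure D1:**
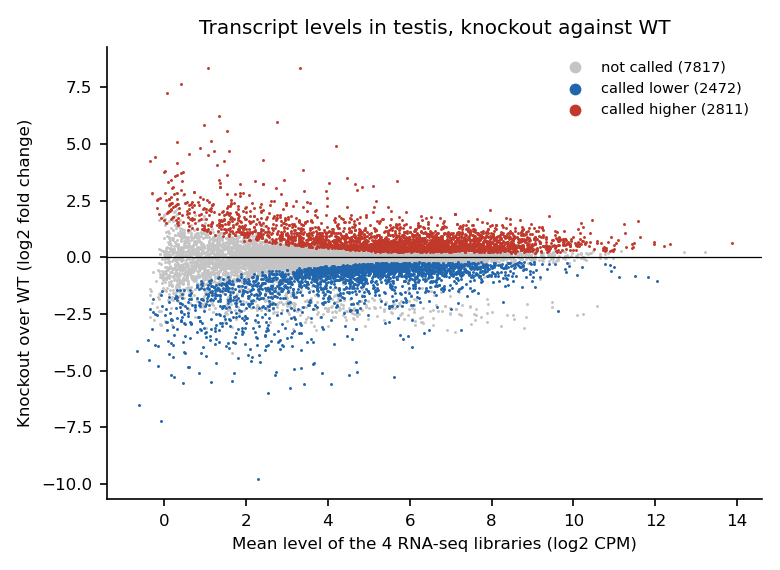
Change of each of 13100 loci, knockout over WT on the log2 scale, against its mean level over the 4 RNA-seq libraries in log2 CPM, with 2811 loci called higher in red, 2472 called lower in blue and the others in grey. The grey loci that lie apart below the line at high levels are mainly those at which the knockout replicates differed.

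The number of calls fell when a WT library was left out and grew when a knockout library was. Without WT replicate 1 the fit called 1273 loci, and without WT replicate 2 it called 1355, where the lone WT library is assumed to vary like the knockout libraries. Without knockout replicate 1 it called 6107 loci, and without knockout replicate 2 it called 7056, where the spread comes from the WT libraries alone. None of the 5283 calls turned into a call in the opposite direction in any of these 4 fits. With the loci that differed at least 4-fold between the knockout libraries left out, the fit of 12854 loci gave 6198 calls, split into 3067 higher and 3131 lower.

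The 237 loci at which the knockout libraries parted were chosen from the RNA-seq values themselves, so their levels and calls are a description. Summed over the 237 loci, the RNA-seq level was 32257 and 32561 CPM in WT replicates 1 and 2. It was 939 CPM in knockout replicate 1 and 12789 CPM in knockout replicate 2. Both knockout libraries lay below both WT libraries at 224 of the loci, and at 39.7% of all loci tested. The median change against the WT mean was -4.82 in knockout replicate 1 and -1.33 in knockout replicate 2. Because of this spread, 220 of the 237 loci were not called in edgeR's quasi-likelihood test, 17 were called lower and 0 were called higher. The choice of loci largely fixed the outcome of fits without 1 of the knockout libraries, so calls from those fits are not given for them.

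**Figure D2:**
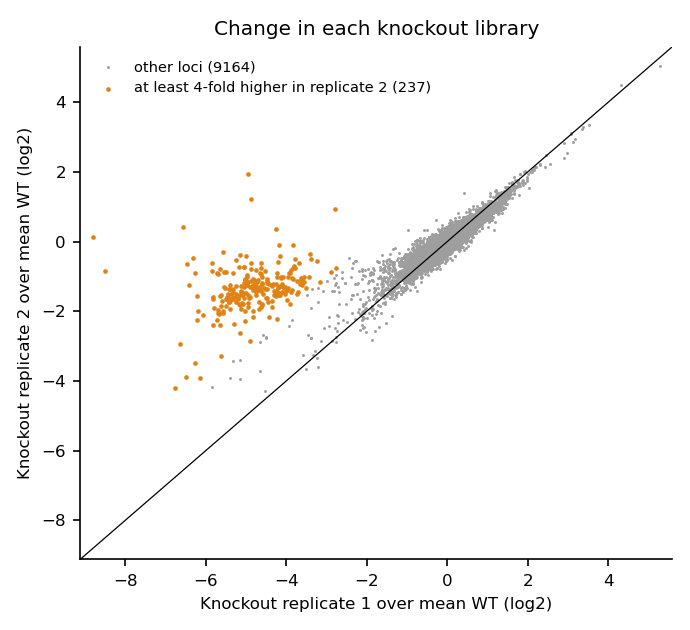
Log2 level in knockout replicate 2 against that in knockout replicate 1, each relative to the mean of the WT libraries, for 9401 loci with a mean of at least 8 CPM; the line marks equal change. The 237 orange loci form a group of their own near -4.82 in replicate 1 and -1.33 in replicate 2, while most others lie along the line.

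Ribosome footprints, the mRNA stretches that ribosomes protect from nuclease, were sequenced from testis of the same set and showed these loci in the opposite order. The footprints of set 1 summed to 68228 and 73481 CPM in WT replicates 1 and 2 over the same loci. They summed to 33478 CPM in knockout replicate 1 and 3245 CPM in knockout replicate 2. The footprints were thus lowest in replicate 2 of the knockout and the RNA-seq in replicate 1, and both knockout libraries were below both WT libraries in each assay. The labels do not say whether an RNA-seq and a footprint library of 1 number came from 1 sample, and whether labels of the knockout replicates were exchanged in 1 of the assays was not tested. In the second set of testis samples, footprints at these loci were not lower in the knockout, with 32568 and 35593 CPM in WT and 41467 and 57787 CPM in the knockout. Of 232 of these loci tested in the set 1 footprints, 27 were called lower and 0 higher. Over all 8678 loci tested in these footprints, 7.54% were called lower and 2.48% higher.

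By the ratio of testis to body in WT, measured in footprint libraries that took no part in their choice, most of these loci fell into a pair of groups. At 139 of the 237 (58.6%), the WT footprint level in testis set 2 exceeded that in body by 1 to 2 log2 units. Among all 9401 loci of that level, 1260 (13.4%) had such a ratio. The other 98 loci lay outside this ratio, and 70 of them were at least 8-fold higher in body. At least 32-fold higher in body were 24 of the 237, and at least 32-fold higher in testis were 0. Of all 13100 loci tested, a wider set than the 9401, 1158 were at least 8-fold and 276 at least 32-fold higher in body. At least 32-fold higher in testis were 144 of the 13100. These counts ask for at least 5 CPM in 1 of the tissues. Summed over the 237 loci, WT footprints were at 101612 and 77594 CPM in body, above the sums in testis set 2, although more of the loci were higher in testis. The deposited length number, whose unit is not stated and which is 94 for the histone H4 gene His4r, had a median of 282 at these loci and of 437 at all 9401. Whether another tissue carried along in dissection had a part in these differences was not tested.

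**Figure D3:**
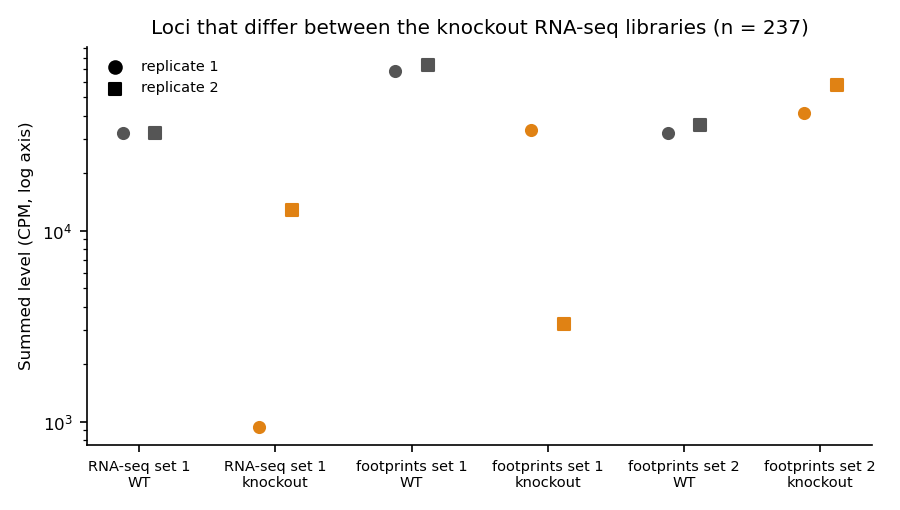
Summed level in CPM, on a log axis, of the 237 loci that differed at least 4-fold between the knockout RNA-seq libraries, with WT in grey, knockout in orange, replicate 1 as circles and replicate 2 as squares. RNA-seq of set 1 is lowest in knockout replicate 1 (939 CPM), footprints of set 1 are lowest in knockout replicate 2 (3245 CPM), and footprints of set 2 are not lower in the knockout.

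With all 4 libraries, loci whose WT footprints were higher in body were called lower more often than others, and those higher in testis were called higher more often. Leaving out a WT library changed these counts in the classes of strongest bias, as given below for body-biased loci. Among testis-biased loci, falls then outnumbered rises, which was not so over all loci. Loci were sorted by the ratio of WT footprints in testis set 2 to those in body, at a minimum of 5 CPM in at least 1 of them, which did not use the RNA-seq contrast. Biased means at least 32-fold, leaning means 2-fold to 32-fold, and shared means under 2-fold. Of 276 body-biased loci, 87 were called lower (31.5%) and 25 higher (9.06%), with a median change of -1.03. Of 3064 body-leaning loci, 727 were called lower (23.7%) and 359 higher (11.7%), with a median of -0.27.

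The body-biased loci were low in these testes to begin with. Their median level was 3.94 and 4.80 CPM in the WT libraries and 1.45 and 2.72 CPM in the knockout libraries. Their summed level was 3038 and 3832 CPM in WT and 1438 and 1955 CPM in the knockout, so the genotypes did not overlap, while WT replicate 2 exceeded WT replicate 1 and knockout replicate 2 exceeded knockout replicate 1. Of these 276 loci, 24 were among the 237 at which the knockout replicates parted, and those held 9 of the 87 lower calls. Without WT replicate 1, 14 body-biased loci were lower and 8 higher. Without WT replicate 2, 9 were lower and 11 higher, so rises outnumbered falls, and the share of falls (3.26%) was below that over all loci in that fit (3.86%). Among body-leaning loci the share of falls without WT replicate 2 (3.66%) was below that over all loci too. Without knockout replicates 1 and 2, 112 and 148 body-biased loci were lower and 27 and 23 higher. The median change of the body-biased loci stayed between -1.19 and -0.70 in these 4 fits. With bias set at 8-fold, 345 of 1158 body-biased loci were lower and 102 higher, with a median of -0.75. The part of tissue other than testis in this difference was not tested.

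Of 4158 shared loci, 747 were called higher and 723 lower, with a median of -0.02. Among 4003 testis-leaning loci, 1286 were called higher (32.1%) and 803 lower (20.1%), with a median of 0.08. The share of rises among them exceeded that over all loci in each of the 4 fits with a library left out, at 10.9% against 5.86% and 11.0% against 6.48% without WT replicates 1 and 2. Without knockout replicates 1 and 2 it was 34.1% against 23.2% and 41.6% against 26.7%. The 144 testis-biased loci lay nearer to the background, with 36 called higher (25%), 31 lower (21.5%) and a median of 0.05. Their median change had no steady sign with a library left out. It was 0.07 and 0.04 without WT replicates 1 and 2, and -0.02 and 0.16 without knockout replicates 1 and 2. With bias set at 8-fold, 860 of 2242 testis-biased loci were higher (38.4%) and 454 lower (20.2%), and the median was 0.15. The testis-leaning loci summed to 609821 and 608943 CPM in WT and to 736524 and 692146 CPM in the knockout, with no overlap between the genotypes. Their median level did overlap, at 59.1 and 58.5 CPM in WT and 59.5 and 58.6 CPM in the knockout. TMM scaling leaves library totals in CPM unequal. The factors were 1.06 and 1.05 in WT and 0.930 and 0.963 in the knockout, and a lower factor gives larger sums. The shared loci also summed higher in the knockout (239159 and 242477 CPM) than in WT (226528 and 230596 CPM), at a median change of -0.02. Body-leaning loci summed lower in the knockout.

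**Figure D4:**
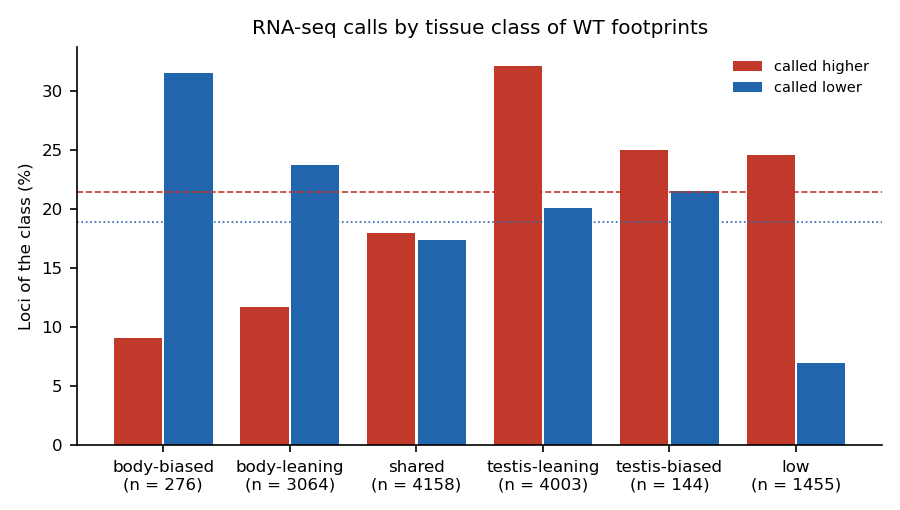
Percent of the loci of each tissue class that were called higher (red) or lower (blue) in knockout RNA-seq, with the number of loci under each class and the shares over all 13100 loci as lines (21.5% dashed red, 18.9% dotted blue). Lower calls are most frequent in body-biased loci (31.5%), and higher calls in testis-leaning loci (32.1%).

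Loci with little or no measured ribosome occupancy in WT of either tissue made up most of the large rises. These loci were chosen for low WT levels, and the count filter admits a locus that is high only in the knockout. A surplus of rises among them can therefore follow from the choice, whose part was not tested. This low class holds loci under 5 CPM in WT footprints of both tissues and loci with too few footprint counts to be measured. Its 1455 loci held 358 higher calls (24.6%) and 101 lower calls (6.94%), with a median change of 0.27. They were 11.1% of the loci tested and held 107 of the 166 rises of at least 4-fold (64.5%). Their median level was 2.35 CPM in each WT library and 2.83 and 2.90 CPM in the knockout libraries. Their median change was 0.29 and 0.28 without WT replicates 1 and 2, and 0.30 and 0.31 without knockout replicates 1 and 2. Far fewer of them were called without either WT replicate, as was so over all loci.

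Falls of at least 4-fold lay mainly on the body side. Body-biased and body-leaning loci held 185 of these 317 falls (58.4%), against 25.5% of all loci tested. Testis-leaning loci held 63 of them and 4 of the rises of that size. Testis-biased loci held 3 of the falls and 0 of the rises.

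Sorted by WT footprint level in testis set 2, the share of higher calls did not move in 1 direction. Loci with too few footprint counts to be measured were placed under 1 CPM. It was 27.7% of 816 loci under 1 CPM, 14.5% of 3861 loci from 1 to 10 CPM, 21.1% of 6453 loci from 10 to 100 CPM and 33.9% of 1896 loci from 100 to 1000 CPM. The share of lower calls climbed with the level, from 9.44% under 1 CPM to 12.9%, 21.5% and 25.8% in the following classes. Above 1000 CPM, 19 of 74 loci were higher and 23 were lower. Precision grows with counts, and its part in these shares was not tested. The median change was 0.34 under 1 CPM and between -0.05 and 0.07 in the other classes.

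Loci were also sorted by the deposited length number. Rises outnumbered falls over all loci (21.5% against 18.9%) and in all length classes but that over 400 and up to 800. Of 726 loci with a number of up to 100, 170 were higher (23.4%) and 91 lower (12.5%). Of 1883 loci over 100 and up to 200, 478 were higher (25.4%) and 274 lower (14.6%). Over 200 and up to 400, 735 of 3639 were higher (20.2%) and 716 lower (19.7%). Over 400 and up to 800, 840 of 4246 were higher (19.8%) and 919 lower (21.6%). Over 800 and up to 1600, 442 of 2005 were higher (22.0%) and 353 lower (17.6%). Over 1600, 146 of 601 were higher (24.3%) and 119 lower (19.8%). The medians of all 6 length classes lay between -0.06 and 0.06, so the classes differed little in typical change.

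Footprints of the same set followed the RNA-seq in part. The footprint libraries held 2832608 and 673141 counts in WT replicates 1 and 2 and 342631 and 926730 in the knockout replicates. Each was shallower than any RNA-seq library of the set, and the part of depth in the shares below was not tested. Over all 8678 loci tested in set 1 footprints by edgeR's quasi-likelihood test, 2.48% were called higher and 7.54% lower. Of 2052 loci called higher in RNA-seq and tested in footprints, 196 were higher in footprints too (9.55%) and 141 were lower (6.87%), the latter share near that over all loci. Their median footprint change was 0.36. Of 1916 loci called lower in RNA-seq, 295 were lower in footprints (15.4%) and 0 were higher, with a median of -0.43. Opposite calls were therefore all rises in RNA-seq with falls in footprints. The counts of loci called in both assays rest on single libraries. Without WT replicates 1 and 2, 66 and 102 loci were called in both in the same direction and 3 and 9 in opposite directions. Without knockout replicates 1 and 2 the same-direction count was 1196 and 465, and the opposite-direction count was 184 and 251.

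Loci that went from near absence to a clear level were few. At 11 loci the WT libraries held at most 1 count between them and each knockout library held at least 10. At 8 loci the reverse was seen.

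The locus with the largest rise among well-measured loci was FBtr0339259, which the sources used here do not tie to a gene. It held 1 count in WT replicate 1 and 0 counts in WT replicate 2, against 275 counts in knockout replicate 1 and 193 in knockout replicate 2. The pooled ratio of levels was 405, with an exact 95% interval of 72.3 to 16015 that covers counting error only. It was called higher (adjusted p = 0.000878 in edgeR's quasi-likelihood test), and its footprints, at 0 and 4.93 CPM in WT and at 45.2 CPM or more in each knockout library, were called higher as well (adjusted p = 0.0165).

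FBtr0072403 had 1.23 and 1.09 CPM in WT and 32.5 and 36.9 CPM in the knockout. The log2 rise was 4.90 (SE 0.17, adjusted p = 0.000789 in edgeR), and its footprints, at 2.31 and 0 CPM in WT and 22.6 and 27.6 CPM in the knockout, were called higher too (adjusted p = 0.0199). In WT it belonged to the body-biased loci, so it went against the direction that was most frequent among them. Neither rise lost its call under any alternative run.

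FBtr0077153 had 17.8 and 15.0 CPM in WT and 0.230 and 0.363 CPM in the knockout. The log2 change was -5.76 (SE 0.28, adjusted p = 0.000854 in edgeR). Its footprints were at 30.8 and 21.4 CPM in WT and at 2.83 and 0 CPM in the knockout, and were called lower as well (adjusted p = 0.0187). It was testis-leaning in WT footprints. FBtr0078196, a body-biased locus, had 13.1 and 28.3 CPM in WT, 0 CPM in knockout replicate 1 and 0.907 CPM in knockout replicate 2. Its groups did not overlap, though its WT replicates were over 2-fold apart. It fell by 5.59 (SE 0.91, adjusted p = 0.00886), and this call was lost without WT replicate 1 (adjusted p = 0.0589) or WT replicate 2 (adjusted p = 0.0877), while over the other alternatives its adjusted p ran from 3.25e-07 to 0.0365.

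The 43 genes that the table tied to a transcript were not chosen for how they moved. They were tied because their synonyms quote a FlyBase transcript, in most cases one that carries a further reading frame of another gene. Of 41 tested, 10 were called higher (24.4%) and 5 lower (12.2%), against 21.5% and 18.9% of all loci, and 26 were not called. CG17325 and CG32573 were too low to be tested. Their median change was 0.04. The knockout libraries lay above both WT libraries for 16 genes, below both for 12, and overlapped with WT for 13. Over all loci tested, they lay above both at 37.2% and below both at 39.7%. A change below is that of the locus that holds the quoted transcript, so other transcripts of the gene may differ. The genes are taken by call and known role, for description only.

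Of the subunits of 1 complex, Wdr59 rose, mio fell and Wdr24 was not called. Wdr59, Wdr24 and mio encode subunits of GATOR2, the complex that relieves the block on TORC1 when amino acids are present. Wdr59 (chromosome 2L, 11091444 to 11095096, dm6) had 62.3 and 63.9 CPM in WT and 177 and 154 CPM in the knockout. It rose by 1.39 (SE 0.09, adjusted p = 0.00118 in edgeR's quasi-likelihood test), the largest rise of the 41 genes. Its footprint change of 1.33 was of like size but missed the threshold (adjusted p = 0.0758). The gene mio (chromosome 2L, 2217290 to 2220625), named for its loss-of-function oocyte defect, had 32.1 and 31.9 CPM in WT and 23.0 and 25.9 CPM in the knockout. It fell by 0.39 (SE 0.10, adjusted p = 0.0307), a call that was lost without either WT replicate (adjusted p = 0.147 in each fit) and without knockout replicate 1 (adjusted p = 0.0545). It was also lost with the DESeq2 test (adjusted p = 0.0858). Wdr24 was not called, with 5.22 and 5.88 CPM in WT, 4.90 and 5.53 CPM in the knockout and a change of -0.09 (SE 0.20). The Wdr59 call was kept under all alternatives, at adjusted p of up to 0.0376.

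Among the genes called higher, BicC, Tcs1 and Mettl5 act on RNA, and they were grouped here after the calls. Other tied frames with names that refer to RNA were not called. They were Rpp14a, on the transcript of CG7950 (change of 0.12, SE 0.14), and SLIRP1, on that of anox (0.21, SE 0.12). BicC (chromosome 2L, 16042047 to 16048757), an RNA-binding protein that acts in oocyte patterning and recruits the deadenylase to its mRNA targets, had 155 and 171 CPM in WT and 327 and 290 CPM in the knockout. The groups lay far apart, and it rose by 0.92 (SE 0.09, adjusted p = 0.00245 in edgeR). Its footprints did not follow, with a change of -0.11 (SE 0.20, adjusted p = 0.962). The transcript also carries a frame of CG45084.

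Tcs1 (chromosome 2R, 20642466 to 20643785), also named sua5, acts in the synthesis of the threonylcarbamoyl modification of tRNA. It had 2.76 and 2.71 CPM in WT and 5.28 and 6.17 CPM in the knockout, and rose by 1.06 (SE 0.22, adjusted p = 0.018). Its transcript also holds Polr3K, a subunit of RNA polymerase III, and the counts cannot be divided between the frames. This call was lost without WT replicate 1 (adjusted p = 0.107) or 2 (adjusted p = 0.113), and missed the threshold in the DESeq2 test (adjusted p = 0.0506). Tcs6, which acts in the same pathway, shares its transcript with PIG-P, and that transcript was not called, with 5.63 and 5.43 CPM in WT and 5.59 and 5.53 CPM in the knockout.

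Mettl5 (chromosome 3L, 19263766 to 19266838), the methyltransferase that places N6-methyladenosine in 18S ribosomal RNA, had 26.9 and 26.2 CPM in WT and 42.0 and 36.6 CPM in the knockout. It rose by 0.57 (SE 0.10, adjusted p = 0.0107), and the call was lost without WT replicate 1 (adjusted p = 0.0812) or 2 (adjusted p = 0.0932).

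The other 6 rises were those of Tim10, PIG-M, Uba1, CG9288, LanA and vnc. Tim10, a chaperone of the mitochondrial intermembrane space, had 65.9 and 69.1 CPM in WT and 132 and 114 CPM in the knockout, a rise of 0.87 (SE 0.10). PIG-M, a mannosyltransferase of the synthesis of glycosylphosphatidylinositol anchors, had 69.4 and 74.4 CPM in WT and 113 and 109 CPM in the knockout, a rise of 0.63 (SE 0.07). Uba1, the enzyme that activates ubiquitin, had 384 and 357 CPM in WT and 493 and 508 CPM in the knockout, a rise of 0.43 (SE 0.06). None of these groups overlapped. CG9288 rose by 0.80, and smaller rises of 0.30 each were called for LanA, a laminin chain of basement membranes, and for vnc, the catalytic subunit of an N-terminal acetyltransferase. Without WT replicate 1 all 6 of these calls were lost (adjusted p from 0.0508 for CG9288 to 0.201 for LanA), and without WT replicate 2 those of Uba1, LanA and vnc were. The vnc call was also lost with the DESeq2 test (adjusted p = 0.0915).

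Beside mio, 4 genes fell, of which Fatp1 and Pepck1 are metabolic genes with higher WT footprints in body. Tied genes on the body side did not all fall, since LanA, called higher, was body-leaning. Body-leaning genes that were not called changed by -0.31 (ND-MNLL) to 0.46 (CG5116). Fatp1, a fatty acid transport protein, had 34.1 and 36.0 CPM in WT and 17.9 and 24.6 CPM in the knockout, and fell by 0.72 (SE 0.17, adjusted p = 0.024 in edgeR). Pepck1, an enzyme of gluconeogenesis, was body-biased and had 15.7 and 13.6 CPM in WT and 9.11 and 9.26 CPM in the knockout, a fall of 0.67 (SE 0.14, adjusted p = 0.0195). The groups did not overlap for either gene. Both calls were lost without WT replicate 1 or WT replicate 2, at adjusted p from 0.0739 to 0.137.

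On the testis side, sle, which encodes a nuclear protein, had 597 and 578 CPM in WT and 397 and 384 CPM in the knockout. It fell by 0.59 (SE 0.06, adjusted p = 0.00237), a call that was lost without WT replicate 1 (adjusted p = 0.0535). Gint3 had 247 and 245 CPM in WT and 190 and 189 CPM in the knockout and fell by 0.38 (SE 0.06, adjusted p = 0.00772), a call lost without WT replicate 1 (adjusted p = 0.0942) or 2 (adjusted p = 0.0916). Both lay in testis-leaning loci.

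**Figure D5:**
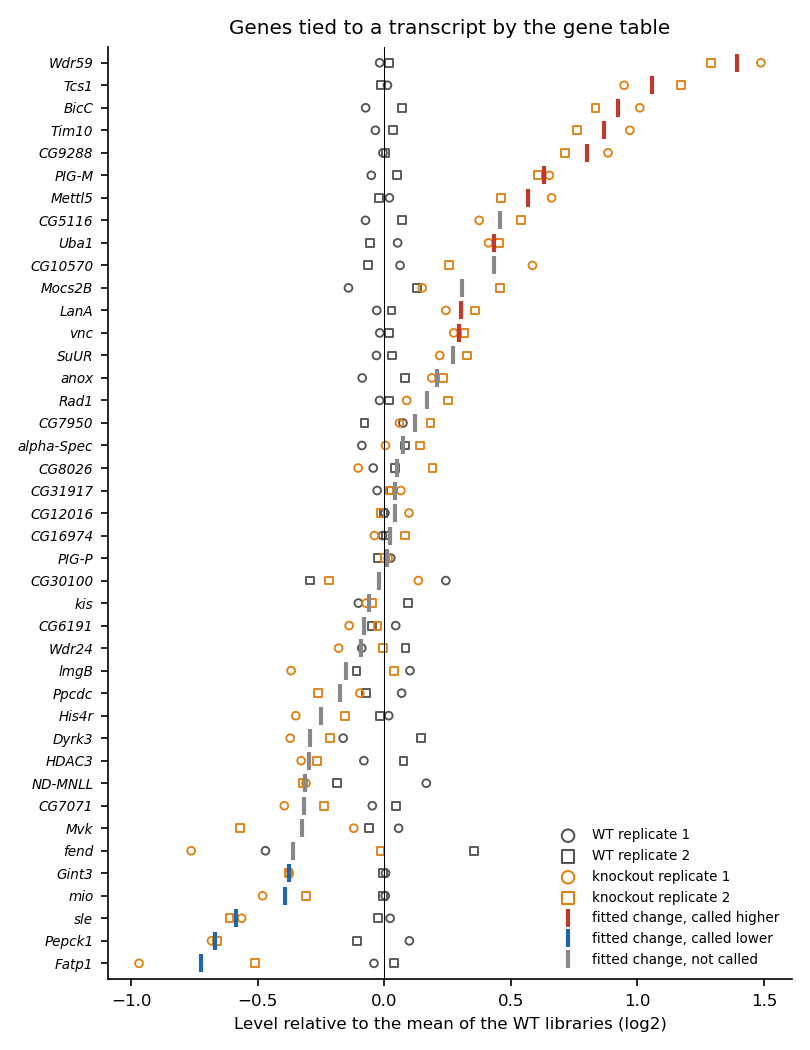
Level of 41 genes in each of the 4 RNA-seq libraries relative to the mean of the WT libraries (log2), with WT in grey, knockout in orange, replicate 1 as circles and replicate 2 as squares, and the fitted change as a bar. The bars run from -0.72 for Fatp1 to 1.39 for Wdr59, with 10 called higher in red, 5 called lower in blue and 26 not called in grey.

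The genes that were not called changed by -0.36 to 0.46, and 13 of them had overlapping groups. Chromatin genes among them included kis, a remodeller of the CHD family, with 206 and 236 CPM in WT and 210 and 214 CPM in the knockout, and HDAC3, a histone deacetylase, with 12.2 and 13.6 CPM in WT and 10.3 and 10.7 CPM in the knockout. The kis transcript changed by -0.06 (SE 0.08), while its footprints rose by 0.79 (adjusted p = 0.0414), the 1 footprint call among the 21 tied genes with a footprint test, of which 9 were not called in RNA-seq. Transcripts of His4r, a histone H4 replacement gene, had 215 and 210 CPM in WT and 167 and 191 CPM in the knockout. The His4r change of -0.25 (SE 0.09) missed the threshold in edgeR (adjusted p = 0.0724) and passed it in the DESeq2 test (adjusted p = 0.0389) and without either knockout replicate (adjusted p = 0.0459 and 0.000301). The cytoskeletal gene alpha-Spec, an alpha-spectrin, had 227 and 256 CPM in WT and 242 and 266 CPM in the knockout, and its groups overlapped.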

How the data were processed

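RNA was sequenced from pooled testes in 2 WT and 2 Mettl1 knockout libraries, made with a SEQuoia Express kit per the labels' protocols. The deposited unit is counts: whole numbers, 1 per FlyBase transcript, with totals that differ between libraries. Per the submitters' processing notes, CASAVA 1.8 and STAR 2.7.0a were used with build dm6. Their roles, the counting tool, its use of strand and the annotation release are not given in the sources used here. Another deposited number per transcript, the same in each library, has no stated unit and served only as a length. It is missing for 4363 of 34703 transcripts, which have 0 counts.

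Neighbouring transcripts often held near-identical counts, so transcripts within 50 entries of each other whose profiles over the 28 libraries lay within a distance of 0.1 were collapsed to 16117 loci, 6955 of them of several transcripts. Totals were 9228102 to 14055292 counts per library. Tests used edgeR 4.0.16 under R 4.3.3 (glmQLFit and glmQLFTest, TMM, filterByExpr at a minimum count of 10, Benjamini-Hochberg over all loci tested), with only the 4 libraries in the fit and no block. The script was tested on simulated data. Set 1 footprint counts were tested in the same way. Tissue classes used WT footprints of testis set 2 and body, with 0.5 CPM added. Other scalings, filters, DESeq2 1.42.0, thinning, uncollapsed transcripts, a replicate block and left-out libraries were tried. The RNA-seq of the second set was not used here.

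The rule for naming took calls whose mean log2 CPM reached 3, whose groups did not overlap and whose higher group held 10 or more counts in each library. Since identifiers were not paired with names, the 2 largest rises and the 2 largest falls were named, and 43 genes were tied to a transcript through synonyms of the RefSeq gene table (Release 6, as dm6). Naming those 43 was decided after the gene lists could not be matched. The libraries, lists and tests were chosen with earlier results of these data known. Intervals cover counting error only.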

Additional observations from a re-analysis of the deposited data

How the results depend on the processing

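Between 4425 and 5323 loci were called with other scalings, the DESeq2 test, no filter, the higher filter, thinning and the replicate block, and none of the main calls turned into an opposite call. The share of calls that were higher stayed between 49.5% and 62.7% over all alternatives, and scaling moved the median change by under 0.1. The replicate numbers do not pair the libraries by label, and the deviations of same-numbered libraries correlated at 0.05 with 2 pairs; the replicate block gave 4561 calls, and in both assays 125 calls of like sign and 53 of unlike sign. Without collapsing, 11402 of 26131 transcripts were called, 5850 higher, 5552 lower and 3222 at least 2-fold, with 1209 of like and 306 of unlike sign in both assays. With a mean of at least 50 counts, 1024 calls were at least 2-fold, 12 body-biased loci were higher and 48 lower, and 171 and 23 of the low loci were. DESeq2 gave 62 lower calls in the low class and 216 calls of like sign in both assays; this last count was 1000 without the filter, 284 after thinning and 924 with the loci that part the knockouts left out. At 8-fold the tissue classes held 102 higher and 345 lower body-biased calls and 860 higher and 454 lower testis-biased calls. The cause of these shifts was not tested, beyond the number of loci entering each fit.

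With each library left out in turn, the calls ranged from 1273 to 7056, the higher calls from 768 to 3500, the lower calls from 505 to 3556 and the calls of at least 2-fold from 735 to 2406. Loci called in both assays numbered 66 to 1196 with like signs and 3 to 251 with unlike signs. Body-biased calls ranged from 8 to 27 higher and 9 to 148 lower, testis-biased calls from 6 to 67 higher and 10 to 43 lower, and calls in the low class from 86 to 412 higher and 9 to 176 lower. Of the 15 named genes called, 13 lost the call without WT replicate 1 and 9 without WT replicate 2, while Wdr59 and BicC kept it in every alternative run. With the replicate block, 1 of the 15 calls was lost, that of mio (adjusted p = 0.051). CG7071, not called in the main test (adjusted p = 0.0505), passed in 6 alternatives. In loci of few counts, changes under 2-fold may have been missed at this depth, which was not tested.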
